A study of Mus musculus with 2 samples.

Results

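Mir208b, Mir208a and Mir499 are microRNA genes that each lie in an intron of a myosin heavy chain gene, and they are sometimes called myomiRs. They were chosen by position, as the genes annotated within Myh7, Myh6 and Myh7b, and they are 3 of the 1973 microRNA genes counted in these libraries. All 3 were detected in both hearts. Mir208b was the second most abundant of all genes counted, at 104936 ± 4545 CPM (sense-strand counts scaled to a library total of 1000000, SD, n = 2). Mir208a had 13703 ± 2426 CPM and Mir499 had 4977 ± 183 CPM. Reads that matched several places in the genome are not in these counts.

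The study sequenced small RNA below 30 nt from the whole hearts of 2 newborn mice of strain B6NCrl, a C57BL/6N substrain, at postnatal day 0. Replicate 1 was the heart of pup 1 and replicate 2 the heart of pup 3, with 1 library made from the total RNA of each. The sex was not collected, and there is no other treatment, genotype or age. The 2 hearts form 1 group, so the measurements describe how abundant the microRNAs were, how they stood to each other, and how far the 2 animals differed.

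A microRNA is cut from a hairpin precursor that has a 5p and a 3p arm. One arm is usually kept as the guide, and its bases 2 to 8, the seed, pair with target messenger RNAs. An intronic microRNA can be made from the same primary transcript as its host gene. Myh6 encodes the alpha and Myh7 the beta myosin heavy chain of heart muscle, and in mice the ventricles shift from Myh7 before birth to Myh6 afterwards. Myh7b is a further member of the myosin heavy chain family. In mice, miR-208a is known for its part in the heart's response to stress, where it is needed for the return of Myh7 expression, and miR-208b and miR-499 are known for promoting slow muscle fibre genes.

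The guide arms are shown because they carry the relation among the genes. They were taken from RefSeq (GRCm38.p6, the assembly of mm10), where all 3 genes were found by symbol. Capitals mark the seed, and each sequence runs 5′ to 3′.

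miR-208b-3p: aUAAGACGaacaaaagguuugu

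miR-208a-3p: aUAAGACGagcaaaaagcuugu

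miR-499-5p: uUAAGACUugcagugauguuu

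The seed UAAGACG was shared by miR-208b-3p and miR-208a-3p and by none of the other mature sequences among the 1738 in that table. miR-499-5p carried UAAGACU, which no other mature sequence in the table had. Bases 2 to 7 were the same in all 3 guides, and these 3 were the only mature sequences in the table with that stretch. Counted from 1 at the 5′ end, miR-208b-3p differed from miR-208a-3p by G10A, A16G and C18U, where the first letter is the base of miR-208a-3p, so 19 of 22 positions were identical. Against miR-499-5p, the only change inside the seed was G8U for both. Over the 21 positions compared, miR-499-5p matched miR-208a-3p at 12 and miR-208b-3p at 10. All of the differences between the miR-208 guides lay outside the seed.

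The precursors are printed to show where the guides lie, with both mature arms in capitals. The guide is on the 3p arm, the second run of capitals, in Mir208b and Mir208a, and on the 5p arm, the first run, in Mir499.

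Mir208b: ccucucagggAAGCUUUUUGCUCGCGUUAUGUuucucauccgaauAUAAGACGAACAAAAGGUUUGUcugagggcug

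Mir208a: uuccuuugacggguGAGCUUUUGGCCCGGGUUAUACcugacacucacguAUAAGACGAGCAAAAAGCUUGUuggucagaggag

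Mir499: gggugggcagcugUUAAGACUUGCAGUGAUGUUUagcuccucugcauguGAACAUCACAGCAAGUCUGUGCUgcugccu

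The other arms of the miR-208 genes were less alike than the guides, with 16 of 22 positions identical between miR-208a-5p and miR-208b-5p. RNAfold predicted minimum free energies of -32.2 kcal/mol for the 77 nt precursor of Mir208b, -37.6 kcal/mol for the 83 nt of Mir208a and -42.5 kcal/mol for the 79 nt of Mir499. Their GC content was 45.5%, 49.4% and 51.9% in the same order. The longest run of bases that any of the 3 precursors shared, on the same strand, with another of the 1005 precursors in the table was 12 nt. The longest run within a guide was 11 nt, from miR-499-5p, so a full-length read of a guide matched no other precursor in the table. Counts per gene do not separate the arms, and each value below is the sum over the precursor.

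Mir208b (ENSMUSG00000077928.1) lay at chr14:54975700-54975776 on the minus strand (mm10), in intron 31 of the 40 introns of the Myh7 transcript Myh7-201. That intron is 461 bases long, and the precursor began 102 bases after the upstream exon. Mir208a (ENSMUSG00000065432.1) lay at chr14:54949060-54949142, also on the minus strand, in intron 29 of the 38 introns of Myh6-201, which is 542 bases long. Mir499 (ENSMUSG00000076312.1) lay at chr2:155622880-155622958 on the plus strand, in intron 19 of the 41 introns of Myh7b-201, which is 481 bases long. None overlapped an exon of another annotated gene on its strand. Mir208b and Mir208a were 26557 bases apart, and each was the only other annotated microRNA gene within 100 kb of the other. Mir499 had none within that distance. Along their host transcripts the precursors began 78.7% (Mir208b), 70.8% (Mir208a) and 50.5% (Mir499) of the way from the start, as the map of the host transcripts shows.

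**Figure D1:**
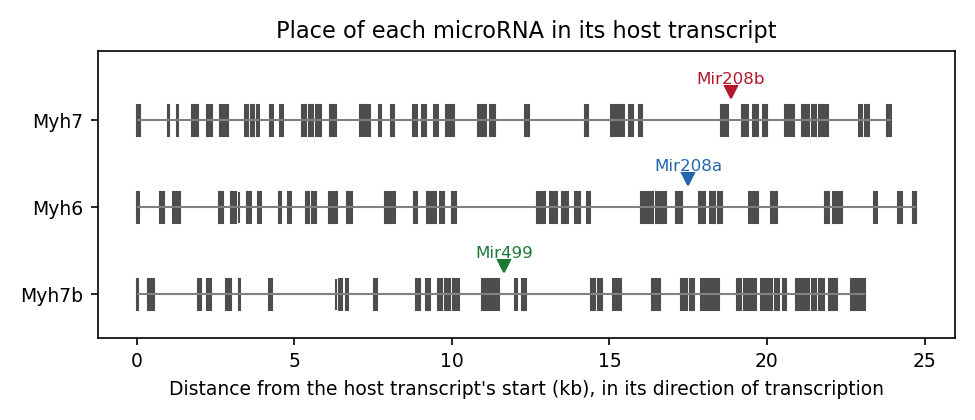
Place of each microRNA in its host transcript. The x axis is the distance in kb from the start of the host transcript in its direction of transcription, grey boxes are exons, and triangles mark the precursor starts, at 18850 bases in Myh7, 17499 in Myh6 and 11668 in Myh7b.

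The gene tables held 6373797 sense-strand counts in replicate 1 and 7630427 in replicate 2, so that 3 counts, the limit a count of 0 allows, were 0.471 and 0.393 CPM. Intervals given below are exact Clopper-Pearson 95% intervals unless stated otherwise, and they and these floors cover counting error only. Reads that matched several places were 35.9% and 34.6% of all reads, and the tables list them apart from the genes. Shares and ranks below are therefore among the reads assigned to a single gene. In whole hearts, fewer cells of a type and less RNA per cell cannot be told apart.

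Mir208b had 648359 counts in replicate 1, or 101723 CPM (interval 101488 to 101958). In replicate 2 it had 825227 counts, or 108150 CPM (107929 to 108370). It ranked 2 among all genes in both hearts, and it was the highest of the 647 genes classed as intronic. Those lay within a protein-coding gene on their strand and overlapped no annotated exon there, exons of microRNA genes aside. Of all genes only Mir126a, the endothelial microRNA within Egfl7, was higher, at 144115 CPM in replicate 1 and 122186 CPM in replicate 2. Mir126a overlapped an exon, so it was not classed as intronic. Next below came Mir143, a microRNA of smooth muscle, at 91427 and 85077 CPM. The values of Mir208b in the 2 hearts overlapped with neither neighbour.

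Mir208a, in the alpha myosin gene, had 98277 counts in replicate 1, or 15419 CPM (interval 15323 to 15515). In replicate 2 it had 91470 counts, or 11988 CPM (11910 to 12065). It ranked 18 among all genes in replicate 1 and 19 in replicate 2, and 7 among the intronic genes in both. By mean level it stood between Mir351, at 11361 and 16262 CPM, and Mirlet7d, at 10189 and 11557 CPM. Its values overlapped with those of Mir351 and not with those of Mirlet7d.

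Mir499, in Myh7b, had 32547 counts in replicate 1, or 5106 CPM (interval 5051 to 5162). In replicate 2 it had 36985 counts, or 4847 CPM (4798 to 4897). It ranked 24 and 26 among all genes, and 10 and 11 among the intronic genes. Its neighbours by mean level were Mir652, at 6423 and 6130 CPM, and Mir107, at 5031 and 4864 CPM. The values of Mir499 and Mir107 overlapped, and those of Mir652 were higher in both hearts.

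**Figure D2:**
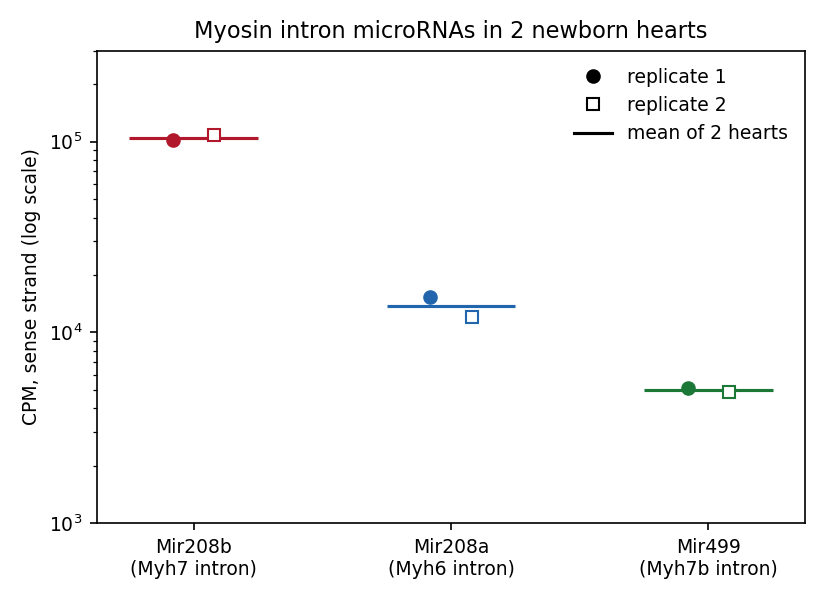
Levels of the 3 genes in each heart. The y axis is CPM on a log scale, filled circles are replicate 1, open squares replicate 2 and lines the mean of the 2 hearts. The 3 genes do not overlap, and the points of Mir208a, at 15419 and 11988 CPM, lie farthest apart.

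Added up, the 3 genes took 12.4% ± 0.193 of the sense-strand counts (SD, n = 2). They took 12.2% in replicate 1 (interval 12.20 to 12.25) and 12.5% in replicate 2 (12.48 to 12.52). With the reads that matched several places added to the total, the mean share was 6.94%. The genes with the shared seed UAAGACG, Mir208b and Mir208a, held 11.7% of the counts in replicate 1 and 12.0% in replicate 2. The summed share varied less between the hearts than its parts did. The coefficient of variation was 1.57% for the 3 genes together, against 4.33% for Mir208b, 17.7% for Mir208a and 3.68% for Mir499.

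Within the trio, Mir208b made up 83.2% of the counts in replicate 1 and 86.5% in replicate 2. Mir208a gave 12.6% in replicate 1 and 9.59% in replicate 2, and Mir499 gave 4.18% and 3.88%. The 3 genes also made up much of the counts of genes classed as intronic. That class held 38.4% of all sense-strand counts in replicate 1 and 40.5% in replicate 2, and the trio was 31.8% and 30.8% of those counts. Genes that overlap an exon, such as Mir126a, are outside the class.

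**Figure D3:**
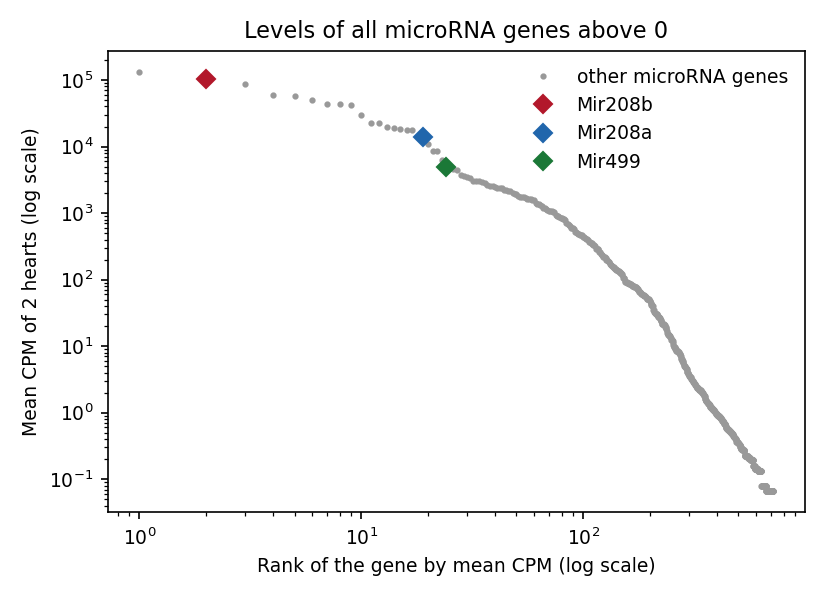
Mean level of each microRNA gene above 0 against its rank. Both axes are logarithmic, grey points are the other genes and diamonds the 3 myosin intron genes, which stand at ranks 2, 19 and 24 by mean CPM.

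Almost no reads came from the strand opposite to these genes. Mir208b had 2 such counts in replicate 1 and 0 in replicate 2, and Mir208a and Mir499 had 0 in both hearts, which allows up to 0.471 and 0.393 CPM. Over all genes 7.15% of the counts in replicate 1 and 7.22% in replicate 2 were on the opposite strand. Such reads were unevenly spread over genes, and a near absence of them was not particular to the trio. Mir143 had 0 opposite-strand counts in replicate 1 and 1 in replicate 2, Mir21a had 1 and 2, and Mir126a had 21 and 21. Among the marker genes described below, the highest were 171 and 393 for Mir1b, followed by 26 and 37 for Mir486. Mir1b had only 7 and 10 sense-strand counts, and the source of its opposite-strand reads was not tested.

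The genes whose levels were closest to each of the 3 in both hearts were found by Euclidean distance in log2 CPM over the 2 libraries. For Mir208b they were Mir143 (distance 0.38), Mir126a (0.53) and Mir335 (1.14). For Mir208a they were Mirlet7d (0.60), Mir351 (0.62) and Mir30d (0.66). For Mir499 they were Mir107 (0.02), Mirlet7b (0.23) and Mir125a (0.36). With 2 hearts this distance mostly reflects a like level. Mir107 was the only one of the 9 within 0.1 of its gene.

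The ratio of Mir208b to Mir208a sets the microRNA from the beta myosin gene against that from the alpha myosin gene. It was 6.60 in replicate 1 (interval 6.55 to 6.64) and 9.02 in replicate 2 (8.96 to 9.08). The mean log2 ratio was 2.95 ± 0.32 (SD, n = 2). Mir208b exceeded Mir499 by 19.9-fold in replicate 1 (interval 19.7 to 20.1) and 22.3-fold in replicate 2 (22.1 to 22.5), a mean log2 ratio of 4.40 ± 0.12. For Mir208a over Mir499 the ratio was 3.02 (2.98 to 3.06) in replicate 1 and 2.47 (2.44 to 2.50) in replicate 2, a mean log2 ratio of 1.45 ± 0.20. In every pair the distance between the genes exceeded the SD between hearts, and the order was the same in both. The mature guides are 21 or 22 nt long, so read counts and counts per guide length stand in nearly the same ratio. The counts were not corrected for how well each sequence is captured during library preparation.

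Within-heart ratios do not depend on how the libraries are scaled. The ratio of Mir208b to Mir208a was 1.37-fold higher in replicate 2 than in replicate 1 (large-sample 95% interval 1.35 to 1.38), a log2 change of 0.45. For Mir208b over Mir499 the change was 1.12-fold (1.10 to 1.14), or 0.16 on the log2 scale. Mir208a over Mir499 changed by 0.819-fold (0.805 to 0.833), or -0.29. All of these intervals leave out 1. To set them against the rest, the same change was computed for all 3486 pairs among the 84 genes with at least 10000 counts, summed over the hearts. The median size was 0.18, and 9.58% of pairs changed at least as much as Mir208b over Mir208a. For Mir208a over Mir499 that share was 29.0%, and for Mir208b over Mir499 it was 53.2%. The pairs share genes, and the shares describe these 2 libraries.

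**Figure D4:**
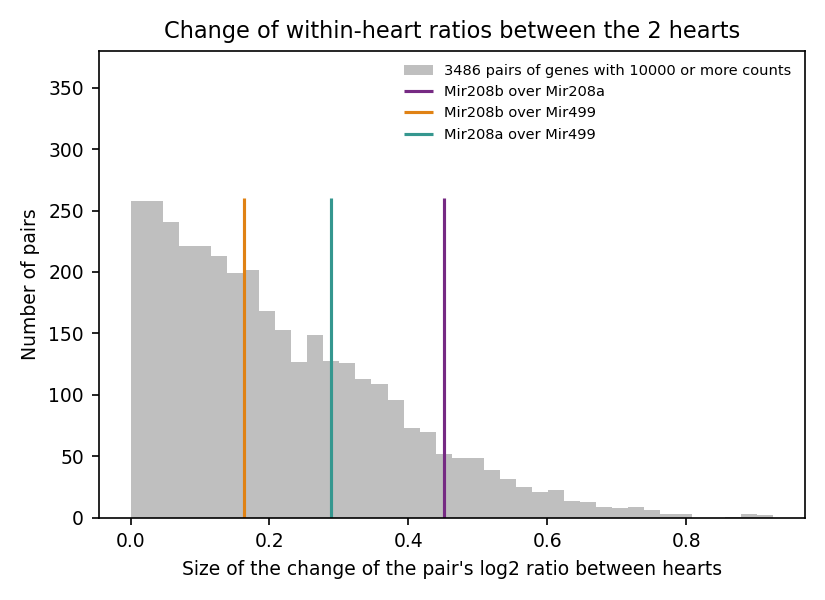
Size of the change of within-heart ratios between the 2 hearts. The x axis is the absolute change of a pair's log2 ratio, grey bars count the 3486 pairs among genes with 10000 or more counts, and lines mark the 3 pairs, at 0.45 for Mir208b over Mir208a, 0.29 for Mir208a over Mir499 and 0.16 for Mir208b over Mir499.

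Between the hearts, Mir208b was slightly higher in replicate 2 and the other genes were higher in replicate 1. The log2 ratio of replicate 2 over replicate 1 was 0.09 for Mir208b (95% interval 0.084 to 0.093), a fold of 1.06. For Mir208a it was -0.36 (-0.38 to -0.35), so that replicate 1 was 1.29-fold higher. For Mir499 it was -0.08 (-0.097 to -0.054), so that replicate 1 was 1.05-fold higher. Tested against the ratio of the library totals with an exact binomial test, all 3 passed after adjustment over the 435 genes that had at least 10 counts. The background was 31.0% of all genes tested, and 78.6% of the 84 genes with 10000 or more counts. A call is thus common at this depth. The adjusted p was 2.31e-297 for Mir208b and 5.43e-11 for Mir499 by the exact test, and for Mir208a it was below the smallest number the software stores. This test counts sampling noise only and compares 2 libraries, so animals and library preparations cannot be told apart. With edgeR's exact test and a preset biological coefficient of variation of 0.1, none of the 3 passed. The adjusted p values of that test were 1 for Mir208b, 0.758 for Mir208a and 1 for Mir499. Only 1 of all 435 genes tested passed at that preset, so the lack of a call is not particular to the trio.

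In size, Mir208a stood apart from the other members. Its absolute log2 ratio was the second largest among the 20 most abundant genes, after Mir351, and ranked 7 among the 84 genes with 10000 or more counts. Mir208b ranked 47 and Mir499 ranked 53 in that order, both below the median absolute log2 ratio of 0.11. These ranks are descriptions of 1 pair of libraries.

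**Figure D5:**
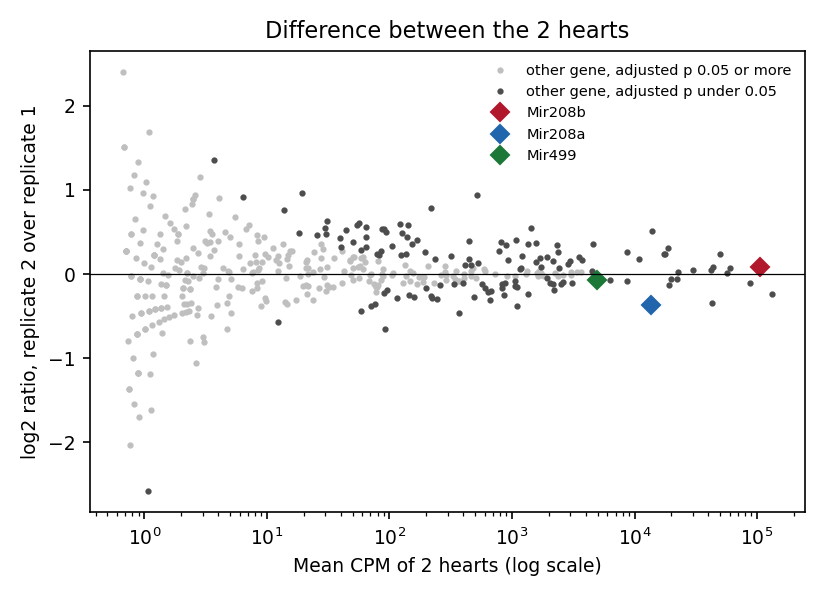
Difference between the 2 hearts for the 435 genes tested. The x axis is mean CPM on a log scale and the y axis the log2 ratio of replicate 2 over replicate 1. Dark points passed the exact binomial test, and diamonds mark Mir208b at 0.09, Mir208a at -0.36 and Mir499 at -0.08.

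Muscle microRNAs outside the myosin genes were counted at far lower levels. In the list of Mir1, Mir133, Mir206 and Mir486 genes, 7 of 8 were counted, all but Mir1a-2. Together these had 168 CPM in replicate 1 and 202 CPM in replicate 2. The myosin trio exceeded them by 727-fold and 619-fold. Mir206, a skeletal muscle microRNA, had 71.2 CPM in replicate 1 and 104 CPM in replicate 2, and it was the 1 gene of 7 tested that was higher in replicate 2 past the threshold. The other 6 did not pass. Over all 435 genes, 19.1% passed with a higher level in replicate 2, so 1 of 7 is near the background. The median log2 ratio of the list was 0.22, against 0.02 over all genes tested. Mir1a-1 had 8.89 ± 1.63 CPM and Mir133a-1 had 8.24 ± 1.88 CPM. Mature Mir1 and Mir133 sequences have more than 1 genomic copy, so reads of theirs that matched several places are not in these counts, and the gap to the trio is uncertain.

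Markers of other cell types moved between the hearts as well, and their part in the differences of the 3 genes was not tested. The endothelium list, with 2 of 2 genes counted, summed to 146855 CPM in replicate 1 and 125176 CPM in replicate 2, so the trio stood at 0.832 and 0.998 of it. The smooth muscle list (2 of 2) summed to 94054 and 87684 CPM, and the trio was 1.30 and 1.43 times as high. For fibroblasts (5 of 5) the sums were 21846 and 20093 CPM, and for erythroid cells (2 of 2) 1043 and 1308 CPM. The leukocyte list (2 of 3) summed to 522 and 565 CPM, without Mir142, which was not counted. Mir122, the hepatocyte marker, had 35.8 and 44.6 CPM. Of the neuronal list 5 of 6 were counted, Mir9-2 and all of Mir124a-1, Mir124a-2 and Mir124a-3 were at 0 in the 2 libraries, and the sum was 0.941 and 0.917 CPM. Mir124a, Mir9 and Mir199a also have more than 1 genomic copy, and reads of theirs that matched several places are not in these counts. The neuronal sum and the Mir199a part of the fibroblast sum are therefore uncertain. By the same exact binomial test, 31% of all 435 genes passed, and 78.6% of the 84 genes with 10000 or more counts. A call on a single marker gene is thus common. Within these lists the genes did not all move together. In the endothelium list, Mir126a was higher in replicate 1 and Mir139 in replicate 2, both past the threshold. The erythroid genes also split, with Mir451a higher in replicate 2 (log2 ratio 0.41) and Mir144 higher in replicate 1 (-0.65). Of the fibroblast genes, Mir21a and Mir199b were higher in replicate 1, Mir199a-2 was higher in replicate 2, and Mir214 and Mir199a-1 did not pass. Mir155 was higher in replicate 2, and Mir223, the other leukocyte gene counted, did not pass (-0.05). In the smooth muscle list Mir143 was higher in replicate 1 and Mir145a did not pass (-0.01). With Mir126a, the main endothelial gene, left out of the totals, the log2 ratios were 0.05 for Mir208b, -0.40 for Mir208a and -0.11 for Mir499. All 3 still passed, as did 30.8% of all genes tested with those totals.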

How the data were processed

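Per the file headers of the accompanying text files, the authors aligned each library to mm10 and counted reads per gene with GENCODE annotation M4. The aligner and counter, with their versions, were not given in the sources used here. The deposited values are whole-number counts with no normalization, in 3 columns without names. The first equals the sum of the others in every gene row, and the second, which holds most counts, was taken as the sense strand. Rows that name no gene (unmapped 12.6% and 15.5%, matching several places 35.9% and 34.6%, in no gene 1.93% and 2.28%) were left out of totals. Both hearts carry 1 donor identifier in the labels, which name different pups, so they were taken as separate animals.

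Genes were named and placed with GENCODE M21 on the same build, which matched 1894 of 1973 identifiers, and the others had 0 counts. Sequences came from RefSeq (GRCm38.p6). CPM is counts over the sense-strand total of a library, scaled to 1000000. For each gene with at least 10 counts in all, the split of its counts between the libraries was tested against the ratio of the totals (exact binomial test, 2-sided). The p-values were adjusted over all such genes by Benjamini-Hochberg, with a threshold of 0.05. Log2 ratios between hearts used 0.5 added counts. Changes of pair ratios carry large-sample intervals on the log odds ratio, in place of exact ones, which could not be computed at these counts. The test was checked on simulated data with counting noise only, so that check does not cover spread between animals. The alternatives were both strands, TMM factors of edgeR, DESeq2 size factors, other totals, minimums and pseudocounts, a preset spread, counts per precursor length, thinning and each heart alone. The genes named are the 3 members, the marker lists, the 3 genes closest in level to each member, those with the same bases 2 to 7, and the most abundant gene. Mir652, a neighbour by level, was named after its value was seen, and so was the minimum of 10000 counts. The members and lists were chosen with earlier results of these data known. RNAfold 2.7.2 folded the precursors. The tests ran in SciPy 1.17.1 and NumPy 2.4.6 under Python 3.11.15, with pandas 2.3.3 for tables and matplotlib 3.10.9 for figures. The scalings and the preset spread used edgeR 4.0.16 and DESeq2 1.42.0 in R 4.3.3.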

Additional observations from a re-analysis of the deposited data

How the results depend on the processing

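No paired analysis was possible because the study has 1 group of 2 hearts. The log2 ratios between hearts kept their sign for all 3 genes and passed under each other scaling, total, strand, minimum and pseudocount tried. With edgeR's exact test and a preset coefficient of variation of 0.1 or 0.2 none of the 3 genes passed. Their log2 ratios stayed at 0.088 (Mir208b), -0.36 (Mir208a) and -0.075 (Mir499). That test allows for a spread between libraries, whose size was assumed and not estimated from these 2 hearts. The preset of 0.1 gave 1 call in all, and 29 genes had an unadjusted p below 0.05. The preset of 0.2 gave 0 calls with edgeR and 4 such genes, against 135 calls for the exact binomial test, which allows for none. The share of the 3 genes was 11.5% with both strands, 14.3% without Mir126a in the total and 6.94% with reads that matched several places added. Each heart alone gave 12.2% to 12.5%. The mean log2 ratio of Mir208b over Mir208a was 2.72 to 3.17 by single heart, 4.32 to 4.48 for Mir208b over Mir499 and 1.31 to 1.59 for Mir208a over Mir499. Both strands, length and thinning left the pair ratios and their changes within the spread or interval given. With 2 hearts, the spread rests on 1 difference.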
